A study of Mus musculus with 10 samples.

Results

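The 10 genes followed here are Axin2, Nkd1, Znrf3, Notum, Dkk1, Lgr5, Sp5, Tcf7, Lef1 and Tcf7l1, a set of feedback regulators, targets and transcription factors of Wnt/β-catenin signalling. They were listed by name, with earlier results of these data known, and all 10 were found among the 54752 genes in the files. All 10 also passed the filter on low counts, which left 12752 genes for testing. Notum, Sp5, Lgr5 and Lef1 passed it through later libraries, with 5, 12, 5 and 16.77 counts over both D0 libraries. Had these genes stayed at their D0 levels, they would not have been tested.

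Messenger RNA was sequenced from primary mouse embryonic fibroblasts, which are connective tissue cells isolated at E13.5, at passage 2. Their mothers were 129S4/SvJaeJ, and their fathers carried an Oct4-GFP transgene on a CBA/CaJ × C57BL/6J background. Every group had been infected for 48 h with retroviruses for Jdp2, Sall4, Esrrb and Glis1, and then kept in an induction medium named iCD3 for 0, 1, 3, 5 or 7 days (D0, D1, D3, D5 and D7). There were 2 libraries per day, called replicate 1 and replicate 2. By its title, the study induced pluripotent stem cells with these factors. D0 cells thus already carried the 4 factors. No library of uninfected cells or of infected cells in another medium was analysed here, so time, medium and factors cannot be told apart. What iCD3 contains was not known from the labels.

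In canonical Wnt signalling a secreted Wnt ligand binds a Frizzled receptor and an LRP co-receptor, which stops a cytoplasmic destruction complex from degrading β-catenin. β-catenin then enters the nucleus, binds factors of the TCF/LEF family and switches on target genes. Several targets encode inhibitors of the pathway itself, so their transcripts are widely used as readouts of its activity. In mouse pluripotent cells, Tcf7l1 is known as a repressor of pluripotency genes and β-catenin as the factor that relieves this repression.

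TCF/LEF proteins bind short sites of the form AACAAAG, with the variants ATCAAAG and then TACAAAG and also TTCAAAG, and promoter sequence was available from RefSeq (GRCm38.p6) for 7 of the 10 genes, in 11 windows from 250 bases before to 50 bases after a start site. These 4 motifs were searched on both strands and cannot overlap on 1 strand. At least 1 match was present in 3 of the 11 windows and in 16.9% of the 32851 windows of all genes. At least 2 matches were present in 1.94% of all windows, and among them were those of Sp5 and Dkk1. The stretches below are shown because Sp5 and Dkk1 hold the same number of matches while Sp5 rose and Dkk1 was not called, and because Axin2 rose with no match in its window. Capitals mark the matches, and each sequence runs 5′ to 3′ on the strand of the gene.
Sp5, chr2:70474673-70474922, plus strand: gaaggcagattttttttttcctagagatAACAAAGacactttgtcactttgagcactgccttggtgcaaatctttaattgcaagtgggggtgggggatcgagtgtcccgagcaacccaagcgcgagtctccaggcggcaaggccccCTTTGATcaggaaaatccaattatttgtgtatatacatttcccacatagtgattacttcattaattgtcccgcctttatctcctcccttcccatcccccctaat
Dkk1, chr19:30549586-30549615, minus strand: agCTTTGAAatcccatcccggCTTTGTTgt
Axin2, chr11:108920099-108920348, plus strand: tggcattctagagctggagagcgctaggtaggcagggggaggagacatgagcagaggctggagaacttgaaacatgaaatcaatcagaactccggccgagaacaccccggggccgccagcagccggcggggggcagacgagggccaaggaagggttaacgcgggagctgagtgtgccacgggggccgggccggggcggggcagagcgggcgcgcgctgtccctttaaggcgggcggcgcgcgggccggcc
In Sp5 the match AACAAAG began 222 bases before the start site, and ATCAAAG, on the opposite strand, ended 98 bases before it. In Dkk1 both matches lay on the opposite strand, TTCAAAG beginning 117 bases and AACAAAG ending 92 bases before the RefSeq start site, which is 169 bases inside the gene as GENCODE draws it. No match was found in the windows of Nkd1, Tcf7 and Tcf7l1, and the single match in Lef1 was in a window 45823 bases inside the gene. The Nkd1 window lay around a start site 6279 bases inside the gene as GENCODE draws it. Sequence before the GENCODE start of Nkd1 was therefore not searched. A match is only a run of letters, and these windows do not cover distant sites. Whether matches bear on the changes in level was not tested. Dkk1 had only 20 to 30 counts per day over both libraries, so a change in it could be missed.

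The libraries of replicate 1 held 2176457 to 4335931 expected counts and those of replicate 2 held 1329377 to 1492105, so that 3 counts corresponded to 0.692 to 2.26 CPM. Levels below are CPM (read counts scaled to TMM-adjusted library totals) unless TPM is named. Fibroblast markers summed to 11930 and 13200 CPM at D0, with all 12 tested, as the labelled cell type implies. At D7 they summed to 603 and 939 CPM, and 9 of 12 were lower than at D0. Markers of pluripotent cells summed to 1766 and 1369 CPM at D7, against 7.83 and 15.0 CPM at D0, and 10 of 10 were higher. Of the primitive streak markers, 4 of 8 tested (10 in the list) were higher at D7, with sums of 96.5 and 74.3 CPM at D7 against 9.79 and 9.73 CPM at D0. Of other lists, 5 of 6 tested endothelial markers (8 in the list) were higher, 4 were higher and 1 lower of 9 extraembryonic endoderm markers (10 in the list), and 2 were higher and 1 lower of 7 trophoblast markers (10 in the list). Neural markers had 1 lower of 3 tested (7 in the list), the single macrophage marker tested of 7 was not called, and none of 7 keratinocyte markers passed the filter. Over all tested genes 9.15% were higher and 8.71% lower at D7. Some markers, such as Tie1 and Sox17, had 0 counts at D0 and passed the filter through later libraries. Marker levels thus shifted over the same days as the Wnt genes, and in bulk RNA fewer cells of a type and less RNA per cell cannot be told apart. The part of these marker shifts in the results below was not tested.

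After 1 day in the induction medium, 4 of the 10 genes had risen above D0: Axin2, Nkd1, Tcf7 and Znrf3. None had fallen. Over all tested genes 2.41% were called higher and 2.12% lower at D1, 4.52% in either direction, at a Benjamini-Hochberg adjusted p under 0.05 from edgeR's quasi-likelihood test. The median log2 change was 2.22 over the 10 genes and 0.011 over all tested genes. With the replicate number as a block, Notum and Sp5 were also called higher and Tcf7l1 lower, which made 7 of 10, where 10.6% of all genes were called. The count depended on the D0 libraries and fell when either of them was left out. How many of all genes were called in those fits is not set beside it, so the fall cannot be read as particular to these genes.

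By D7, 7 of the 10 genes stood above D0, the same 4 together with Notum, Sp5 and Lef1, and none stood below it. Both comparisons use the same D0 libraries. In that comparison 9.15% of all tested genes were called higher and 8.71% lower, 17.9% in either direction. The median log2 change was 2.28 over the 10 genes and 0.060 over all. Tcf7l1, Lgr5 and Dkk1 were not called. A test of any difference among the 5 days called 8 of the 10, all but Lgr5 and Dkk1, against 19.1% of all genes. That count also fell when either D0 library was left out, with the same limit.

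**Figure D1:**
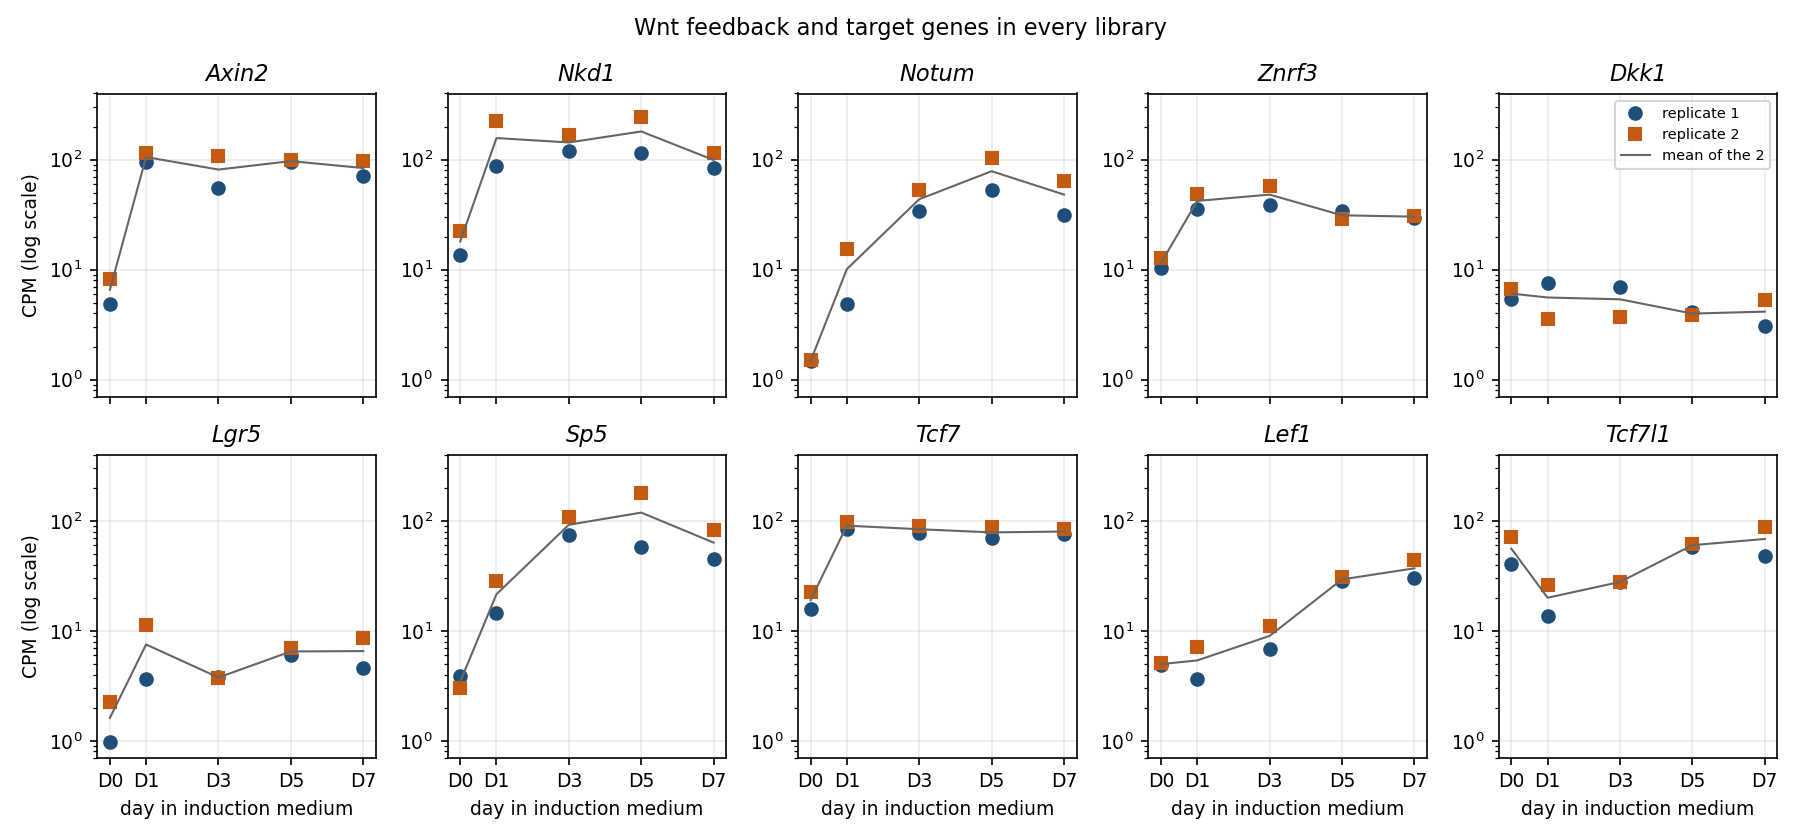
CPM on a log scale for each of the 10 genes against the day in induction medium, with a symbol per library (circles replicate 1, squares replicate 2) and a line through the mean of the 2. Axin2, Nkd1, Tcf7, Znrf3, Notum, Sp5 and Lgr5 stand above D0 in every library from D1 on, and Notum and Sp5 climb further from D1 to D3. How many of all tested genes stand above D0 in this way was not computed. Lef1 is high only at D5 and D7, and Tcf7l1 is lowest at D1.

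Axin2 (ENSMUSG00000000142, chromosome 11, 108920349 to 108950783, plus strand, GRCm38 in all that follows) encodes a scaffold of the destruction complex and is a standard feedback readout of β-catenin activity. It had 4.89 and 8.23 CPM at D0, 95.3 and 116 CPM at D1, 54.7 and 108 CPM at D3, 94.5 and 99.8 CPM at D5, and 71.4 and 96.6 CPM at D7 (replicates 1 and 2). Every library from D1 on lay far above both D0 libraries, and the libraries of D1, D3, D5 and D7 overlapped one another. The mean was 106 ± 14.7 CPM at D1 and 6.56 ± 2.36 CPM at D0 (SD, n = 2 each), a 16.4-fold rise (log2 change 4.04, SE 0.45, adjusted p = 0.00155). At D7 the mean was 84.0 ± 17.9 CPM, 13.0-fold above D0 (log2 change 3.70, SE 0.44, adjusted p = 0.000442). Among the ordered day means D1, D5, D7, D3 and D0, the single pair of neighbours called was D3 over D0 (adjusted p = 0.000683). Axin2 was the 1 gene of the 10 called at both D1 and D7 against D0 under each of the alternatives tried and without any 1 library.

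Nkd1 (ENSMUSG00000031661, chromosome 8, 88521354 to 88594884, plus strand) encodes Naked cuticle 1, which binds Dishevelled and dampens the signal. It had 13.7 and 22.5 CPM at D0, 87.6 and 227 CPM at D1, 120 and 167 CPM at D3, 115 and 247 CPM at D5, and 83.8 and 115 CPM at D7. Replicate 2 was the higher library on each day, and from D1 on all libraries lay above those of D0. Nkd1 rose 8.76-fold at D1 (157 ± 98.5 CPM, against 18.1 ± 6.19 CPM at D0, log2 change 3.13, SE 0.55, adjusted p = 0.00928). At D7 it was 5.55-fold above D0 (99.4 ± 22.1 CPM, log2 change 2.47, SE 0.54, adjusted p = 0.0101). The D1 call was lost without D0 replicate 1 (adjusted p = 0.115) or D0 replicate 2 (0.0568), and the D7 call without D0 replicate 1 (0.0954), with changes of 2.81, 3.52 and 2.19 on the log2 scale.

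Znrf3 (ENSMUSG00000041961, chromosome 11, 5276324 to 5444847, minus strand) encodes a membrane ubiquitin ligase that clears Frizzled receptors from the cell surface. It had 10.3 and 12.7 CPM at D0, 35.3 and 49.1 CPM at D1, 38.9 and 57.4 CPM at D3, 33.8 and 28.6 CPM at D5, and 29.8 and 30.9 CPM at D7. All libraries after D0 lay above both D0 libraries, with the highest at D3. The rise was 3.66-fold at D1 (42.2 ± 9.75 CPM, against 11.5 ± 1.73 CPM at D0, log2 change 1.87, SE 0.36, adjusted p = 0.0139) and 2.65-fold at D7 (30.3 ± 0.765 CPM, log2 change 1.41, SE 0.36, adjusted p = 0.0198). Both calls depended on single libraries and on the scale. The D1 call was lost on the TPM scale (adjusted p = 0.0821) and without D0 replicate 1 (0.147), D0 replicate 2 (0.0938) or D1 replicate 2 (0.0801). The D7 call was lost on the TPM scale (0.0915) and without D0 replicate 1 (0.142), D0 replicate 2 (0.0767), D7 replicate 1 (0.0963) or D7 replicate 2 (0.0658).

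Notum (ENSMUSG00000042988, chromosome 11, 120653788 to 120661175, minus strand) encodes a secreted esterase that inactivates Wnt ligands by removing their lipid. It had 1.468 and 1.497 CPM at D0, 4.82 and 15.4 CPM at D1, 34.3 and 53.1 CPM at D3, 52.9 and 104 CPM at D5, and 31.7 and 64.7 CPM at D7. The D0, D1 and D3 libraries formed 3 ranges without overlap, and those of D3, D5 and D7 overlapped. At D7 Notum stood 30.9-fold above D0 (48.2 ± 23.3 CPM, against 1.48 ± 0.0206 CPM at D0, log2 change 4.95, SE 0.77, adjusted p = 0.00166), the largest fitted change of the 10 genes in that comparison. Its D0 level rests on 3 and 2 counts, so the size of this fold is imprecise. The change at D1 was 2.63 on the log2 scale (SE 0.85, adjusted p = 0.122, or 0.0103 with the replicate block), and at D3 against D1 it was 2.19 (SE 0.59, adjusted p = 0.254, or 0.00709 with the block). Notum was called higher at D7 than at D1 (log2 change 2.32, adjusted p = 0.0287), a call lost on the TPM scale (0.112) and without D1 replicate 1 (0.169), D7 replicate 1 (0.0529) or D7 replicate 2 (0.133). An antisense gene, Notumos, shares 708 exon bases with Notum and had 161 counts in all libraries together. The labels do not say that counting used strand, so reads of the pair cannot be told apart.

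Sp5 (ENSMUSG00000075304, chromosome 2, 70474923 to 70477729, plus strand) encodes a zinc finger factor of the Sp family and is a direct target of β-catenin in mouse pluripotent cells. It had 3.91 and 2.99 CPM at D0, 14.6 and 28.5 CPM at D1, 74.9 and 110 CPM at D3, 58.5 and 179 CPM at D5, and 44.8 and 82.1 CPM at D7. As for Notum, the D0, D1 and D3 libraries did not overlap, and the 2 libraries of D5 stood far apart. Sp5 was 17.6-fold above D0 at D7 (63.5 ± 26.4 CPM, against 3.45 ± 0.651 CPM, log2 change 4.14, SE 0.69, adjusted p = 0.00247). Its log2 change was 2.55 at D1 against D0 (SE 0.71, adjusted p = 0.0730) and 2.13 at D3 against D1 (SE 0.56, adjusted p = 0.233), and with the replicate block both were called (0.00457 and 0.00815). The D1 change was also called without D5 replicate 1 (0.0207) or D5 replicate 2 (0.0210).

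The TCF/LEF factors that bind β-catenin followed 3 courses. Tcf7 (ENSMUSG00000000782, chromosome 11, 52252371 to 52283014, minus strand), which encodes TCF1, a factor with roles as an activator with β-catenin, had 15.7 and 22.5 CPM at D0, 84.3 and 96.8 CPM at D1, 77.8 and 90.2 CPM at D3, 69.8 and 87.4 CPM at D5, and 75.3 and 84.8 CPM at D7. Its level after D0 stayed within 69.8 and 96.8 CPM in all 8 libraries, all of them above D0. It was 4.79-fold above D0 at D1 (90.5 ± 8.82 CPM, against 19.1 ± 4.81 CPM, log2 change 2.26, SE 0.31, adjusted p = 0.00269) and 4.23-fold at D7 (80.0 ± 6.72 CPM, log2 change 2.08, SE 0.31, adjusted p = 0.00137). The D1 call was lost without D0 replicate 1 (log2 change 2.02, adjusted p = 0.0558). No pair of later days that neighboured in the order of means was called.

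Lef1 (ENSMUSG00000027985, chromosome 3, 131110471 to 131224356, plus strand), which encodes another β-catenin partner and is itself a target, had 4.89 and 5.07 CPM at D0, 3.65 and 7.12 CPM at D1, 6.81 and 11.2 CPM at D3, 28.2 and 30.6 CPM at D5, and 30.1 and 44.0 CPM at D7. The libraries of D0, D1 and D3 were all under 12 CPM, and those of D5 and D7 were all above 28 CPM. Lef1 was 7.20-fold above D0 at D7 (37.0 ± 9.88 CPM, against 4.98 ± 0.123 CPM, log2 change 2.85, SE 0.47, adjusted p = 0.00242). At D1 the fitted log2 change was 0.001 (adjusted p = 1), and its sign turned with the processing. D5 against D3 had a log2 change of 1.77 (SE 0.44, adjusted p = 0.146), called only with the replicate block (0.0184). Against D3, D7 was higher (log2 change 2.09, adjusted p = 0.0271), a call lost on the TPM scale (0.0810) and without D3 replicate 1 (0.134), D3 replicate 2 (0.119), D7 replicate 1 (0.121) or D7 replicate 2 (0.128). Against D1, D7 was higher by 2.85 on the log2 scale (adjusted p = 0.00493, or 0.0514 without D1 replicate 1). An unnamed opposite-strand gene model, Gm43352, shares 1208 exon bases with Lef1 and had 28.4 counts in all libraries.

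Tcf7l1 (ENSMUSG00000055799, chromosome 6, 72626378 to 72789254, minus strand) encodes TCF3, the family's repressor in mouse pluripotent cells. It had 40.6 and 71.1 CPM at D0, 13.7 and 26.3 CPM at D1, 28.1 and 27.6 CPM at D3, 58.5 and 61.9 CPM at D5, and 48.3 and 88.7 CPM at D7. Both D1 libraries lay below both D0 libraries, and the libraries of D5 and D7 overlapped those of D0. The log2 change at D1 was -1.51 (20.01 ± 8.93 CPM, against 55.9 ± 21.6 CPM at D0, SE 0.44, adjusted p = 0.0831, or 0.00941 with the replicate block). D7 was higher than D1 (68.5 ± 28.6 CPM, log2 change 1.80, adjusted p = 0.0243), a call lost on the TPM scale (0.0749) and without D1 replicate 1 (0.158) or D7 replicate 2 (0.139). D7 against D0 had a log2 change of 0.29 (SE 0.41, adjusted p = 0.687), which turned to -0.019 without D0 replicate 1 and -0.16 without D7 replicate 2.

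Levels of the family can be set side by side in TPM, which is scaled per transcript length. At D0, Tcf7l1 had the highest TPM of the 4 members, 22.1 and 37.7 TPM, which was 42.9% and 48.9% of their sum, and Tcf7 had 10.8 and 18.1 TPM. At D1, Tcf7 had 58.6 and 69.0 TPM and made up 78.9% and 67.8% of the sum, and Tcf7l1 had 7.35 and 13.8 TPM. By D7, Tcf7 made up 50.1% and 42.5%, Tcf7l1 24.5% and 36.1% and Lef1 20.2% and 14.2%. Tcf7 was thus the highest of the 4 in every library from D1 on. The fourth member, Tcf7l2, made up 22.5% and 24.9% at D0 and 5.23% and 7.20% at D7, and its change in CPM was not called (log2 change -1.25, adjusted p = 0.0905). These shares are descriptions of single libraries and carry no test, and in D0 replicate 1 Lef1 had 7.02 TPM, against 2.19 TPM in D0 replicate 2, where its CPM were nearly equal.

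**Figure D2:**
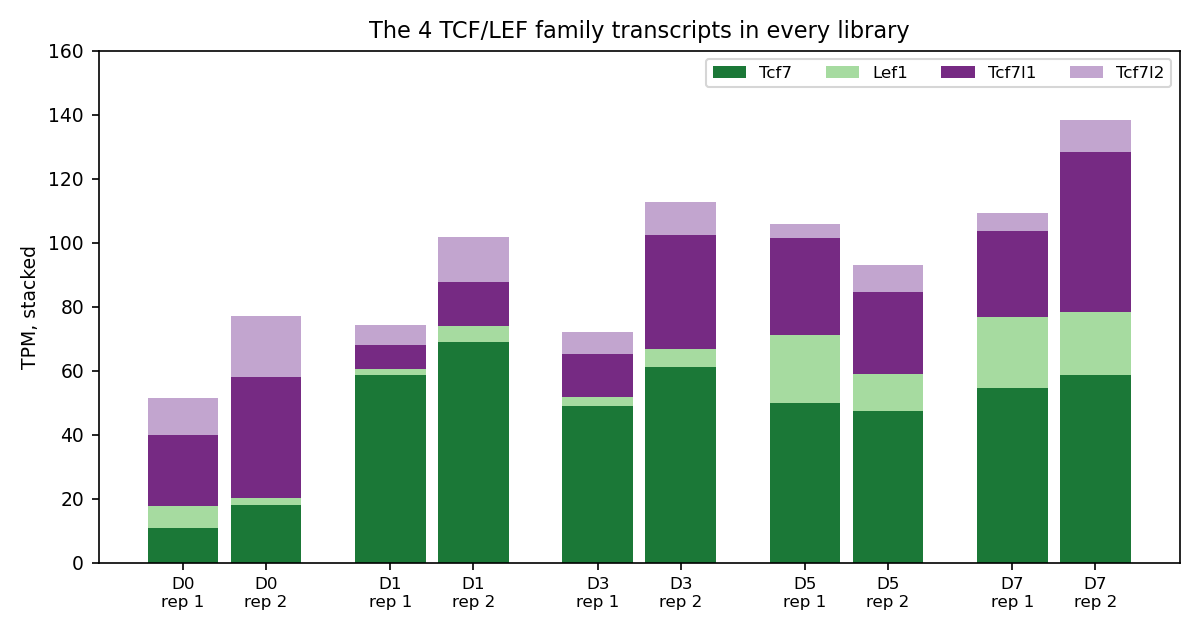
Stacked TPM of Tcf7, Lef1, Tcf7l1 and Tcf7l2 in each of the 10 libraries, ordered by day. Tcf7 is the largest block in every library from D1 on, Tcf7l1 is the largest at D0, and Lef1 is largest as a block at D5 and D7.

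The remaining 2 genes were scarce. Lgr5 (ENSMUSG00000020140, chromosome 10, 115450311 to 115587780, minus strand), an R-spondin receptor and a marker of Wnt-dependent stem cells, had 0.979 and 2.25 CPM at D0, 3.66 and 11.4 CPM at D1, 3.80 and 3.73 CPM at D3, 6.03 and 6.96 CPM at D5, and 4.55 and 8.54 CPM at D7. All libraries after D0 lay above both D0 libraries, but the D0 values rest on 2 and 3 counts. Its log2 change was 2.19 at D1 (SE 0.86, adjusted p = 0.210) and 2.01 at D7 (SE 0.86, adjusted p = 0.135), neither called with or without the block. Dkk1 (ENSMUSG00000024868, chromosome 19, 30545863 to 30549665, minus strand), a secreted inhibitor that binds the LRP co-receptors and a known Wnt target, had 5.38 and 6.74 CPM at D0, 7.61 and 3.56 CPM at D1, 7.02 and 3.73 CPM at D3, 4.11 and 3.87 CPM at D5, and 3.05 and 5.26 CPM at D7. The D1 and D3 libraries overlapped those of D0, while those of D5 and D7 lay below both D0 libraries, and the log2 change at D7 against D0 was -0.59 (SE 0.69, adjusted p = 0.617). Dkk1 therefore showed no rise detectable at this depth on any day, while 7 of the other genes were called above D0 at D7.

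**Figure D3:**
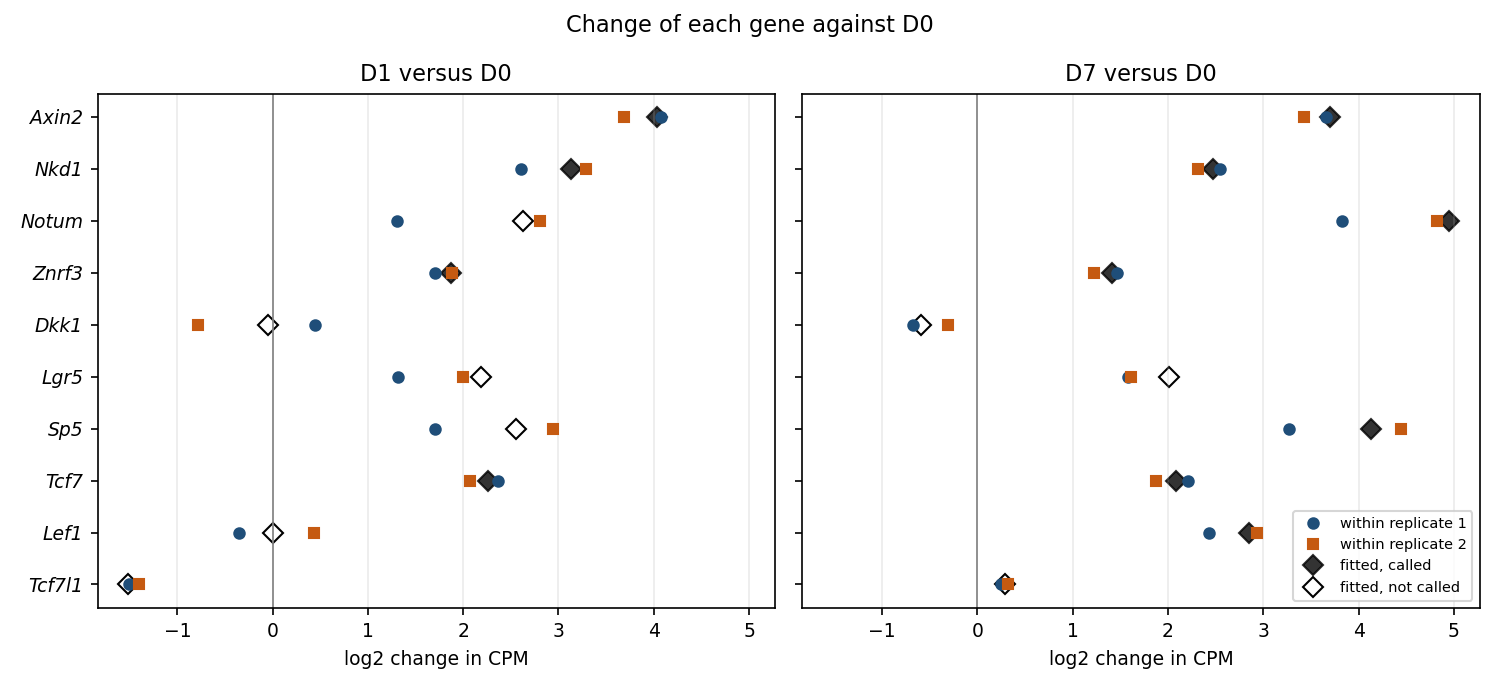
Log2 change in CPM of each gene at D1 (left) and D7 (right) against D0. Circles and squares are the changes within replicate 1 and replicate 2, computed with a prior count of 2 that shrinks scarce genes, and diamonds are the fitted changes without it, filled where called. At D7 the 7 called genes lie between 1.41 and 4.95.

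Between neighbouring days after D1, no member was called. D3 against D1 called none of the 10, where 0.0549% of all genes were called. Notum and Sp5 had an unadjusted p under 0.05, as had 1083 of the 12752 tested genes. The replicate block and DESeq2 each called 2 members, and the number of all genes that DESeq2 called is given with the alternatives below. With the block 1.62% of all genes were called in that step. D5 against D3 called none, with 0.0706% of all genes called. At an unadjusted p under 0.05 there were 2 members and 1502 of the 12752 tested genes. DESeq2 called 0 members, and the block called 1, Lef1, and 3.3% of all genes. D7 against D5 called none, with 0% of all genes called, 0 members under an unadjusted p of 0.05, and 0 members by DESeq2 or with the block, which called 0.157% of all genes. Over wider intervals, D5 against D1 called 3 higher (Notum, Sp5 and Lef1), with 2.64% of all genes called higher and 4.39% called, and D7 against D1 called 3 higher (Notum, Lef1 and Tcf7l1), with 6.18% and 11.5%. D7 against D3 called 1 higher (Lef1), with 3.07% and 5.37%. For D5 against D1 the adjusted p was 0.0187 for Notum, 0.0331 for Sp5 and 0.0156 for Lef1. All of these calls were lost without D1 replicate 1 (0.128, 0.195 and 0.129), and that of Sp5 also without D0 replicate 1 (0.0513), D0 replicate 2 (0.0501), D1 replicate 2 (0.0882) or D5 replicate 2 (0.0864). They were also lost on the TPM scale (0.0645, 0.0501 and 0.107) and in a fit of those 2 days (0.0837, 0.127 and 0.0856). When the 5 day means of a gene were put in order, the neighbouring pairs called without the block were D3 over D0 for Axin2, D7 over D0 for Nkd1 and Znrf3, and D5 over D0 for Tcf7 (adjusted p = 0.00154). For the other 6 genes no neighbours in that order were called in that fit. With the block, D3 over D1 and D1 over D0 were called for Notum, D7 over D1 (adjusted p = 0.00458) and D1 over D0 for Sp5, and D5 over D3 for Lef1, and the libraries of each of these pairs did not overlap. For Tcf7l1, Lgr5 and Dkk1 no neighbours were called in either fit.

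Per transcript length the order of the 10 genes at D7 was Nkd1 (67.3 ± 15.4 TPM), Tcf7 (56.7 ± 2.85), Sp5 (48.1 ± 18.7), Notum (45.3 ± 21.02), Axin2 (40.6 ± 7.99), Tcf7l1 (38.4 ± 16.4), Lef1 (20.8 ± 1.72), Znrf3 (8.34 ± 0.149), Dkk1 (2.69 ± 0.933) and Lgr5 (2.44 ± 1.31). At D0 Tcf7l1 led with 29.9 ± 11.1 TPM, followed by Tcf7 (14.5 ± 5.14) and Nkd1 (11.8 ± 4.44), and the other 7 averaged under 5 TPM. Both D7 libraries of Nkd1 and of Tcf7 lay above both of Axin2, and the libraries of Sp5, Notum and Tcf7l1 overlapped those of Axin2. Differences between genes were not tested. Of the 4 feedback inhibitors that rose, Nkd1, Notum and Axin2 were among the first 5, and Znrf3 was lower than those 3 in both D7 libraries.

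Across the 10 libraries, the tested gene whose log2 CPM most resembled that of Axin2 was Tcf7 (Pearson r = 0.987), and the gene most like Tcf7 was Axin2. Notum and Sp5 were likewise among the 3 closest genes of each other (r = 0.982), each led by Dmtn, a gene for an actin-bundling protein (r = 0.985 with Notum and 0.988 with Sp5). Nkd1 was closest to Phospho1 (r = 0.979), Znrf3 to Pnpla6 (r = 0.985), Lef1 to the chromatin remodelling subunit gene Smarcd1 (r = 0.977), Tcf7l1 to Nrm (r = 0.965) and Lgr5 to Tbx3, a T-box factor of pluripotent cells (r = 0.938). Dkk1 was closest to Mmachc (r = 0.928). These coefficients were picked as the highest of all tested genes, and share the libraries and their depth. For Axin2, Nkd1, Tcf7, Znrf3, Notum, Sp5 and Lgr5 both D0 libraries lay below the other 8. How many of all tested genes share this trait was not computed. The coefficients are descriptions and carry no p.

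The rest of the pathway did not move in 1 direction. Of 102 genes in 8 lists of Wnt pathway roles, none of them among the 10, 82 were tested, and at D7 against D0 14 were called higher and 15 lower. That is 35.4% of them, against 17.9% of all tested genes, with a median log2 change of -0.096 over the 82 and 0.060 over all. At D1, 8 were higher and 3 lower, 13.4% against 4.52%, with a median of -0.022. A listed gene at 0 counts at D0 entered the test because of its later libraries.

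Upstream of the receptors, the ligand list had 19 genes, of which 11 were tested, 2 were higher and 2 lower at D7. Wnt2b had 1.96 and 3.94 CPM at D7, against 50.4 and 69.6 CPM at D0 (log2 change -4.48, SE 0.48, adjusted p = 0.000255). Wnt5a, a ligand of mostly β-catenin-independent signalling, had 27.6 and 38.8 CPM at D7, against 121 and 109 CPM at D0 (log2 change -1.81, adjusted p = 0.00537). Both of these ligands fell. Wnt5b rose to 13.3 and 17.7 CPM at D7, against 3.91 and 0.748 CPM at D0 (log2 change 2.58, adjusted p = 0.0272), and Wnt8a, at 0 counts at D0, was at least 13.6-fold higher (adjusted p = 0.0107). Of the 2 genes for ligand secretion, Porcn, the acyltransferase that adds the lipid Notum removes, had 64.6 and 24.3 CPM at D7, against 1.96 and 2.99 CPM at D0 (log2 change 4.22, adjusted p = 0.000965). Wls, the carrier of lipidated Wnts, fell to 105 and 126 CPM at D7, against 316 and 224 CPM at D0 (log2 change -1.23, adjusted p = 0.0172).

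Of 15 tested receptor and co-receptor genes (16 in the list), 1 was higher and 3 lower at D7. Fzd10 rose to 76.8 and 103 CPM at D7, against 2.446 and 1.497 CPM at D0 (log2 change 5.41, SE 0.50, adjusted p = 0.000137). Fzd2, the most abundant of the called Frizzled genes at D0, fell to 43.3 and 110 CPM, against 374 and 545 CPM (log2 change -2.61, adjusted p = 0.00586), as did Fzd1 (-2.20, adjusted p = 0.00933) and the co-receptor Ryk (-1.44, adjusted p = 0.00342). In the R-spondin branch 1 of 4 tested genes (7 in the list) was higher. This was Rnf43, the partner ligase of Znrf3, with 12.4 and 15.1 CPM at D7, against 0 and 1.497 CPM at D0 (ratio 22.1, exact 95% counting interval 5.92 to 186, adjusted p = 0.00978). Lgr4, another R-spondin receptor, had a mean of 60.0 CPM on both days (adjusted p = 0.997).

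Of 10 tested genes for secreted and membrane antagonists outside the 10 (15 in the list), 1 was higher, 4 were lower and 5 were not called at D7. Dkk2 had 2.18 and 1.31 CPM at D7, against 15.7 and 15.0 CPM at D0 (log2 change -3.02, adjusted p = 0.0170). Dkk3, a Dickkopf relative with little action on Wnt, had a log2 change of -2.25 (adjusted p = 0.00764), and Sfrp1, a secreted Wnt binder, one of -1.92 (adjusted p = 0.00636). Apcdd1, a membrane inhibitor and a reported target, rose to 87.2 and 98.6 CPM at D7, against 15.2 and 24.0 CPM at D0 (log2 change 2.26, adjusted p = 0.00221). Fibroblast markers fell over the same interval, as given above, and their part in the fall of these genes was not tested.

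The cytoplasmic core had the smallest share of called genes of the 8 lists. Of 17 tested genes for cytoplasmic transducers and the destruction complex (18 in the list), Btrc, the ubiquitin ligase subunit that recognises β-catenin, was the single called gene (log2 change 1.44, adjusted p = 0.0134). Ctnnb1, which encodes β-catenin, had a mean of 827 CPM at D7 and 745 CPM at D0 (adjusted p = 0.764). Of 10 nuclear partners, Tle4, a corepressor of TCF factors, was higher (log2 change 1.32, adjusted p = 0.0195), and Bcl9l, a coactivator, lower (-1.54, adjusted p = 0.0326).

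Other reported targets split, with 6 higher and 4 lower of 13 tested (15 in the list). Called higher at D7 were 4 homeobox, T-box and growth factor genes at 0 counts at D0. Cdx1 was at least 63.5-fold higher (adjusted p = 0.000425), T (brachyury) at least 44.6-fold (0.00266), Mixl1 at least 4.79-fold (0.00631) and Fgf8 at least 3.50-fold (0.0484), with 3 counts over the 2 D0 libraries as the floor. T and Mixl1 are also primitive streak markers, a list whose D7 sums are given above, and the part of such cells in the result was not tested. Tnfrsf19, picked out after its values were seen, rose 4.45 on the log2 scale at D1 and 3.85 at D7, while Cd44 (-4.50), Ccn4 (-5.08), Ccnd1 (-1.98) and Myc (-1.63) were lower at D7.

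At D1 the called pathway genes, also named after their values were seen, included the receptors Fzd10 (log2 change 4.67) and Fzd6 (2.42), the R-spondin receptor Lgr6 (2.79), the inhibitors Apcdd1 (2.70) and Sost (2.95), the ligand Wnt10a (2.22), and the targets Tnfrsf19 and Mixl1, which rose. Mixl1 had 21.3 and 22.8 CPM at D1, against 0 CPM in both D0 libraries, at least 24.5-fold. Lower at D1 were Dkk3 (-2.84), Sfrp1 (-3.07) and Ccn4 (-3.51). The inhibitor genes Apcdd1 and Sost thus rose on the first day together with Axin2, Nkd1 and Znrf3, and Dkk3 and Sfrp1 fell.

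**Figure D4:**
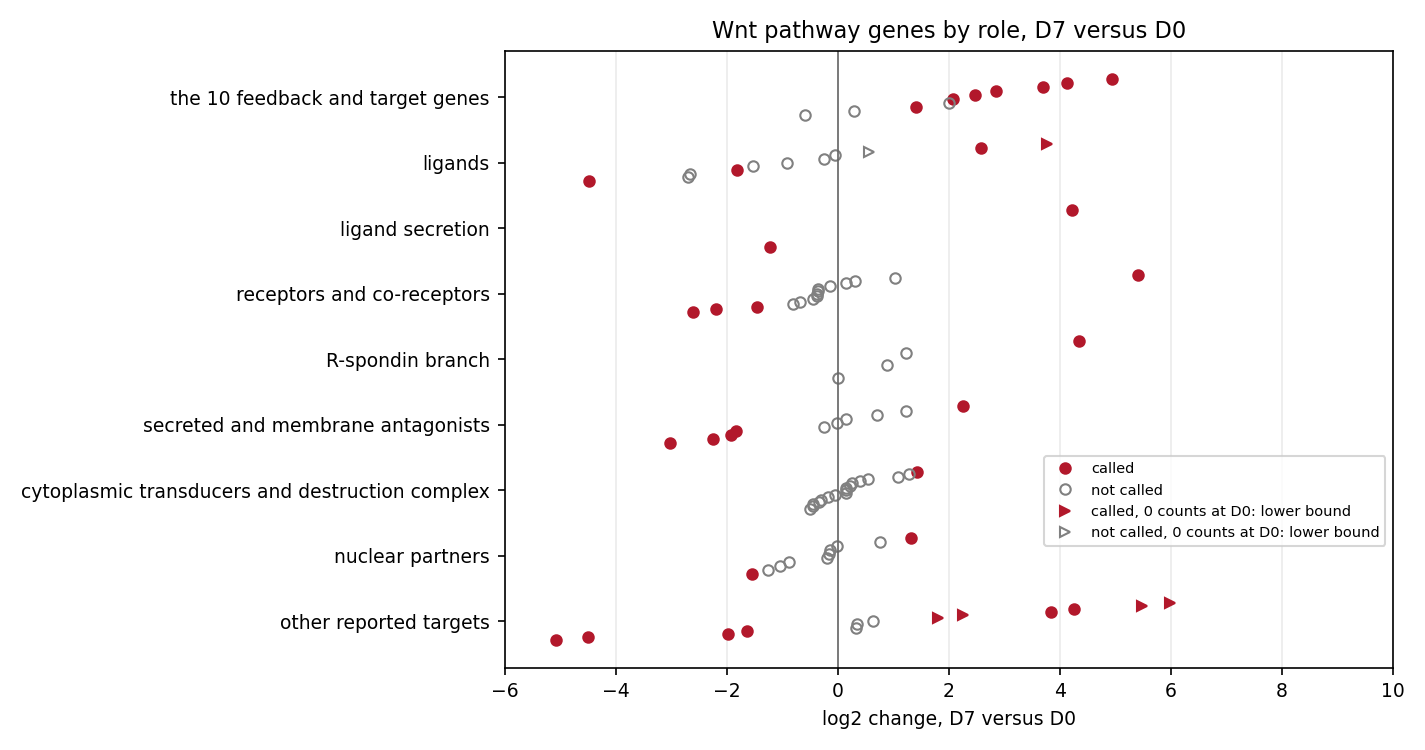
Log2 change at D7 against D0 of the 10 genes (top row) and of the tested genes of 8 pathway lists, a symbol per gene, filled red where called. Triangles mark genes at 0 counts at D0, drawn at their lower bound. The top row holds 7 called genes, all to the right of 0, whereas the ligand, receptor, antagonist and target rows hold called genes on both sides. The R-spondin and cytoplasmic rows each hold 1 called gene, to the right of 0. The 10 genes and the lists were chosen with earlier results of these data known.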

How the data were processed

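Messenger RNA of 10 libraries, 2 per day, was measured. Per the submitters' processing notes, bcl2fastq, Bowtie2 and RSEM were used on mm10, with versions, annotation and strand setting not given in the sources used here. RSEM tables from the authors hold expected counts, TPM and FPKM, per the file headers. The deposited expected counts are unnormalised estimates, rounded to whole numbers for the tests and left unrounded for CPM and summed counts. The deposited TPM set levels between genes and entered 1 alternative, on log2(TPM + 1). The deposited FPKM were not used.

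Gene names came from GENCODE M21 (54723 of 54752 identifiers matched). edgeR 4.0.16 (limma 3.58.1, R 4.3.3) fitted a model with a term per day to all 10 libraries after TMM scaling and a minimum count of 10, which left 12752 genes, with p-values adjusted over all of them. A gene was called at an adjusted p under 0.05. Log2 CPM used a prior count of 2, and levels are mean ± SD. Each SE was taken as the size of the log2 change over the root of its F statistic. The fit was run on simulated counts in which all genes had the same spread setting and the replicate number had no effect. That run does not bear on the spread or the replicate effect in these data. Floors and counting intervals cover counting error only. DESeq2 1.42.0 was an alternative.

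The series text speaks of 2 independent experiments, and deviations of equally numbered libraries correlated at 0.274 to 0.437 over all 10 pairs of days. A fit with the replicate number as a block is therefore given where it changes a call of the 10 genes. List counts at D7 are without the block, which changed several of them. With it, 2 ligand genes were higher and 4 lower, 2 receptor genes higher and 4 lower, and 10 fibroblast markers lower. Nothing else says that replicates came from separate cultures, so the p-values rest on the spread between libraries only, which can be technical. The labels name 2 library kits for every sample, and the deposited effective lengths imply fragments of 136 to 159 bases (replicate 1) and 199 to 204 bases (replicate 2).

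Genes named were the 10, from each pathway list up to 4 called genes with the largest change at D7 against D0, and the genes most correlated with each of the 10. Pathway genes outside this rule were also named, such as Lgr4, Ctnnb1, Tcf7l2, Wnt6 and Wnt7b. Some of those outside it were picked after their values were seen. The 10 genes and the lists were chosen with earlier results of these data known.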

Additional observations from a re-analysis of the deposited data

How the results depend on the processing

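Members called at D1 against D0 were 4, and 7 with DESeq2, with no filter or with the replicate block, and 1 to 5 leaving out 1 library. At D3 against D1 they were 0, and 2 under each of the same 3 settings. At D5 against D3 they were 0, and 1 with the block. For DESeq2 at D1 against D0, the number of all genes called is not set beside its 7 members. That count of members cannot be read as particular to them. Leaving out 1 library gave 5 to 7 at D7 against D0 (7 with all) and 4 to 8 for any difference among days (8 with all). Genes called at D1 against D0 were 577, 1064 with no filter, 1350 with the block and 121 to 911 leaving out 1 library. At D3 against D1 they were 7, 15 with upper-quartile scaling, 128 with DESeq2, 272 with no filter, 206 with the block, 12 in a fit of those 2 days and 0 to 45 leaving out 1 library. At D5 against D3 they were 9, 151 with DESeq2, 17 on the TPM scale, 452 with no filter, 421 with the block and 0 to 288 leaving out 1 library. At D7 against D5 they were 0 (810 at an unadjusted p under 0.05), 30 with DESeq2, 1 on the TPM scale, 176 with no filter, 20 with the block and 0 to 227 leaving out 1 library. At D7 against D0 they were 2278, 3629 with the block and 839 to 2988 leaving out 1 library. For any difference they were 2436, 4139 with no filter, 4455 with the block and 1235 to 3514 leaving out 1 library.

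The D1 change of Lef1, near 0, turned negative with RLE scaling (-0.017), DESeq2 (-0.005), TPM (-0.27), the stricter filter (-0.007), the block (-0.027), and without D0 replicate 1 (-0.036), D1 replicate 2 (-0.43) or D5 replicate 2 (-0.003), and ran from -0.43 to 0.49 over the libraries left out. That of Dkk1 turned positive in a fit of those 2 days (0.008) and without D0 replicate 2 (0.13) or D1 replicate 2 (0.37), from -0.75 to 0.37 in all. That of Tcf7l1 at D7 turned negative without D0 replicate 1 (-0.019) or D7 replicate 2 (-0.16), from -0.16 to 0.78 in all. The causes were not tested. Of the recomputed log2 changes of single members, 520 values kept their direction and side of the threshold, 39 lost a call and 32 gained one. Upper-quartile scaling moved the median of all genes by 0.13 at D7 against D0. Beyond the calls given beside their values, the replicate block added Sp5 at D7 against D1 (adjusted p = 0.00458, and 0.0895 without it) and Tcf7l1 at D5 against D1 (0.00461, and 0.0615) and at D7 against D3 (0.0184, and 0.0982), and it changed no other call of the 10 genes. Scarce genes such as Lgr5 and Dkk1 are limited by depth.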

Other observations

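Replicate 2 lay above replicate 1 on all 5 days for 5 of the 10 genes (Axin2, Notum, Nkd1, Lef1 and Tcf7), against 13.1% of all tested genes. The median log2 ratio of replicate 2 to replicate 1 over the days was 0.97 for Notum, 0.86 for Sp5, 0.80 for Tcf7l1, 0.77 for Lgr5, 0.68 for Nkd1, 0.54 for Lef1, 0.43 for Axin2, 0.29 for Znrf3, 0.21 for Tcf7 and -0.072 for Dkk1. The part of library kit or fragment length in this was not tested.

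The summed level of the ligand genes was highest at D1 and lowest at D7, with 376 and 373 CPM at D0, 818 and 940 CPM at D1, 627 and 759 CPM at D3, 219 and 523 CPM at D5, and 146 and 189 CPM at D7. The largest differences in the D1 sum came from Wnt6 (288 and 179 CPM at D1, against 68.0 and 37.4 CPM at D0), Wnt10a (205 and 183 CPM, against 43.5 and 39.7 CPM), Wnt5a (208 and 253 CPM, against 121 and 109 CPM) and Wnt7b (56.3 and 256 CPM, against 51.9 and 76.3 CPM), and of these Wnt10a was called at D1 (adjusted p = 0.0174), while Wnt6 (0.0506, or 0.0155 with the replicate block) and Wnt5a (0.131, or 0.0300 with it) were called with the block and Wnt7b in neither fit (0.528 and 0.197). The R-spondin branch stayed between 53.4 and 105 CPM in all libraries, and the cytoplasmic transducers between 1925 and 2903 CPM. These sums carry no test.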
